A study of Arabidopsis thaliana with 4 samples.

Results

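NET1B (AT4G14760), NET1D (AT1G03080) and ATMAP65-6 (AT2G01910) are Arabidopsis thaliana genes for proteins that bind the cytoskeleton. The first pair belongs to the actin-binding NET family and the last to the microtubule-binding MAP65 family. They are 3 of 13356 genes with a probe set of their own on the Affymetrix ATH1 array, and each was read by 1 probe set whose annotation names no other gene. They were picked for their values on these arrays: NET1B and NET1D for a high ratio of duf761-1 over NO, and ATMAP65-6 for a low ratio of OE6 over Col-0. Those ratios are therefore given as a description and support nothing. Whole 2-week-old seedlings of 4 genotypes were compared, with 1 array per genotype, so no difference has a replicate check or a p-value, and only sizes are given. The duf761-1 mutant was set against NO, the wild type of the Nössen background. OE6, a transgenic line that overexpresses DUF761-1, was set against Col-0, the wild type of the Columbia-0 background. DUF761-1 is named for a protein domain of unknown function. Its locus is not given in the sources used here, so its transcript was not read to check the genotypes. All plants grew on half-strength medium with 2% sucrose at 22 °C, with days of 16 h light (100 µmol per m2 per s) and nights of 8 h. The mutant is 1 line and the overexpressor is 1 line, and what drives the transgene is not given in the sources used here.

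Plant cells hold a web of actin filaments, along which myosins carry organelles, and an array of microtubules beneath the plasma membrane that guides the deposition of cellulose. NET proteins, named Networked, are found in plants and bind actin filaments through a domain at their N-terminus. Different members sit at different membranes, and the founding member NET1A marks the plasma membrane and plasmodesmata of root cells. MAP65 proteins form dimers that link neighbouring microtubules, and several act in the phragmoplast, the structure that builds the new wall between daughter cells. ATMAP65-6 has been found with mitochondria and links microtubules into a mesh in the test tube.

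The deposited values are signal intensities made with MAS5, on a linear scale and brought to a common mean on each array, so a value can be followed across arrays for 1 probe set but not set against another probe set. A floor was placed at a signal of 102, the 40th percentile of non-control probe sets, and 58.3% to 61.6% of these probe sets were above it on an array. Where 1 array of a pair was at the floor, the ratio is only a bound and is written "at least". Measurement noise was gauged on 60 genes read by 2 probe sets each, from how far apart their log2 ratios were. These probe sets were above the floor on all 4 arrays, with a median signal of 413. The resulting SD per probe set, called the yardstick here, was 0.28 between duf761-1 and NO, 0.24 between OE6 and Col-0 and 0.42 between Col-0 and NO. Differences from plant to plant or between labelling reactions are not in it. Anything else that makes 2 probe sets of a gene disagree is in it, so it may hold more than noise. For pairs of arrays across the backgrounds it was larger, from 0.40 to 0.44, and the cause was not tested. The material carried markers of shoot and root on all 4 arrays: LHCB4.1, a light-harvesting protein of the leaf, had signals between 17984 and 20409, and PYK10, a root glucosidase, between 15882 and 16513. Of 7 root markers 3 had a named probe set, and those besides PYK10 did not move together. EXPA18, a root hair expansin, had a log2 ratio of -0.74 in the mutant, 0.62 in the overexpressor and -1.18 between Col-0 and NO. EXPA7, also of root hairs, was at least 0.50 higher in the mutant, 0.34 higher in the overexpressor and at least 0.60 higher on Col-0 than on NO. The summed signal of the root markers, nearly all of it PYK10, was 16282 on duf761-1, 16876 on NO, 16998 on OE6 and 16313 on Col-0. Over the 2 of 9 shoot markers the sum was 32086 on duf761-1, 33551 on NO, 26367 on OE6 and 26525 on Col-0. Of 8 pollen and reproductive markers 2 had a named probe set, and their summed signal was between 135 and 283. Of the markers for dividing cells, 0 of 6 had a named probe set, so the share of dividing tissue was not read. Fewer cells of a type and less RNA per cell cannot be told apart in whole seedlings.

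NET1B had a signal of 490.0 on the duf761-1 array, against 177 on the NO array. It had 351 on OE6, against 367 on Col-0. The NO array was the lowest of the 4, and the other arrays lay within a narrower range of each other. In the order duf761-1, Col-0, OE6, NO, the steps were 0.42, 0.06 and 0.99 on the log2 scale, with yardstick SDs of 0.44, 0.24 and 0.40 for the same pairs of arrays. The neighbours duf761-1 and Col-0, and Col-0 and OE6, therefore differed by less than the yardstick, and only the step down to NO was larger than it.

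NET1D had a signal of 260.0 on duf761-1, against 80.2 on NO, which is under the floor. It had 239.5 on OE6, against 282 on Col-0. Again NO was the lowest array, and it was the only one on which NET1D was not above the floor. The order was Col-0, duf761-1, OE6, NO, and the steps were 0.12, 0.12 and 1.58 on the log2 scale before any floor, with yardstick SDs of 0.44, 0.40 and 0.40. Between the first 3 arrays of this order, each step was smaller than its yardstick SD. That SD comes from probe sets above the floor on every array. It does not cover the step down to NO, where NET1D was under the floor.

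ATMAP65-6 had another pattern. Its signal was 682 on duf761-1, against 428 on NO, and 280.3 on OE6, against 526 on Col-0. The highest value was on the mutant array and the lowest on the overexpressor array, with the wild types between them. The steps from duf761-1 to Col-0 (0.38), from Col-0 to NO (0.30) and from NO to OE6 (0.61) compare with yardstick SDs of 0.44, 0.42 and 0.40. The wild types thus differed by less than the yardstick, and the step from NO to OE6 also crosses the backgrounds.

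**Figure D1:**
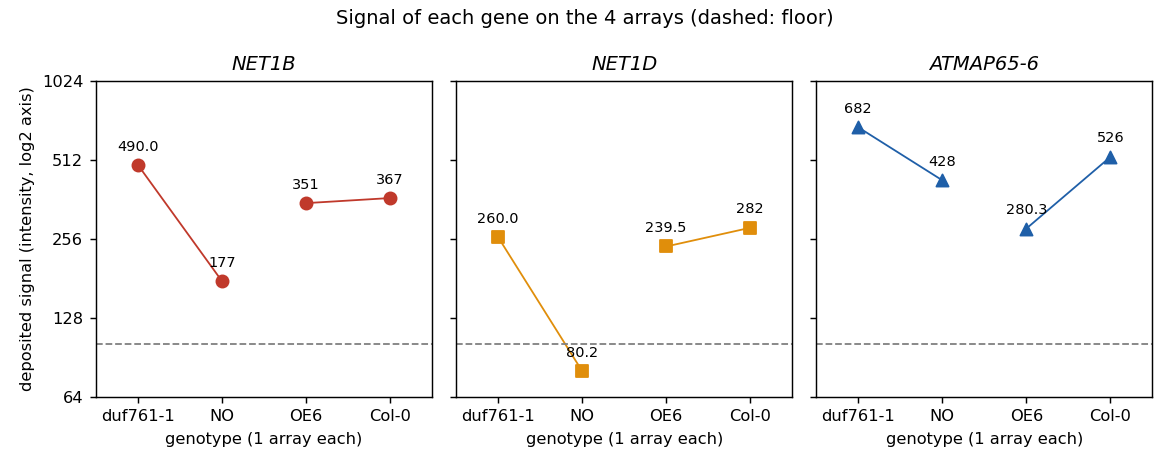
Deposited signal (intensity, log2 axis) of NET1B, NET1D and ATMAP65-6 on each array, with 1 array per genotype, lines joining each line to its own wild type and the floor of 102 dashed. NET1B and NET1D are lowest on NO (177 and 80.2), while ATMAP65-6 is highest on duf761-1 (682) and lowest on OE6 (280.3). Heights are not comparable between panels.

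Setting duf761-1 against NO compares the mutant line with its wild type. With 1 array each, an effect of the mutation cannot be told from other differences between these arrays. NET1B was 2.77-fold higher on duf761-1 (log2 ratio 1.47), and NET1D was at least 2.54-fold higher (log2 ratio at least 1.35, and 1.70 when the floor is not applied). Of all 7994 genes that exceeded the floor on some array, 0.663% were at least 2-fold higher on duf761-1, and these genes were chosen from among them. NET1B was 1 of 16 genes with a log2 ratio of 1.47 or more, and NET1D 1 of 22 genes with one of 1.35 or more. Genes were split into 4 bins of mean signal, and both lay in the second bin from the bottom, where 21 of 1998 genes, 1.05%, were at least 2-fold higher. These signals are modest, and the size of the ratios depends on how dim values are treated. With a floor at the 60th percentile, a signal of 288, NET1B had a log2 ratio of 0.77 and NET1D was at the floor on both arrays. With a pseudocount in place of the floor NET1D was at 0.99.

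ATMAP65-6 was 1.59-fold higher on duf761-1 than on NO, a log2 ratio of 0.67 that did not reach 2-fold. The gene was picked with earlier results of these data known, so this ratio too is only a description. The ratio was 2.37 times the yardstick SD, and 197 of 7994 genes, 2.46%, had one as high. It kept its direction under the processing settings run, between 0.56 and 0.73.

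Setting OE6 against Col-0 compares the overexpressor line with its wild type. An effect of the transgene cannot be told from other differences between these arrays, and the level of DUF761-1 was not read. ATMAP65-6 was 1.88-fold lower on OE6, with a log2 ratio of -0.91, short of 2-fold. Of all genes above the floor, 0.475% were at least 2-fold lower, and 52 of 7994 had a ratio as low as that of ATMAP65-6, which was chosen for it. Over the processing settings run the log2 ratio lay between -0.99 and -0.72. The duf761-1 and OE6 comparisons share no array, and the ratio of ATMAP65-6 was positive in the mutant and negative in the overexpressor. With 1 array each, this pattern of signs has no replicate check, and the gene was picked with earlier results of these data known.

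For OE6 over Col-0, neither NET1B nor NET1D stood out. NET1B had a log2 ratio of -0.06 and NET1D one of -0.24, against a yardstick SD of 0.24. Of 7994 genes, 3305 had a ratio as low as that of NET1B and 1602 one as low as that of NET1D. Of the 3 genes, 0 were at least 2-fold apart, beside 0.951% of all genes.

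**Figure D2:**
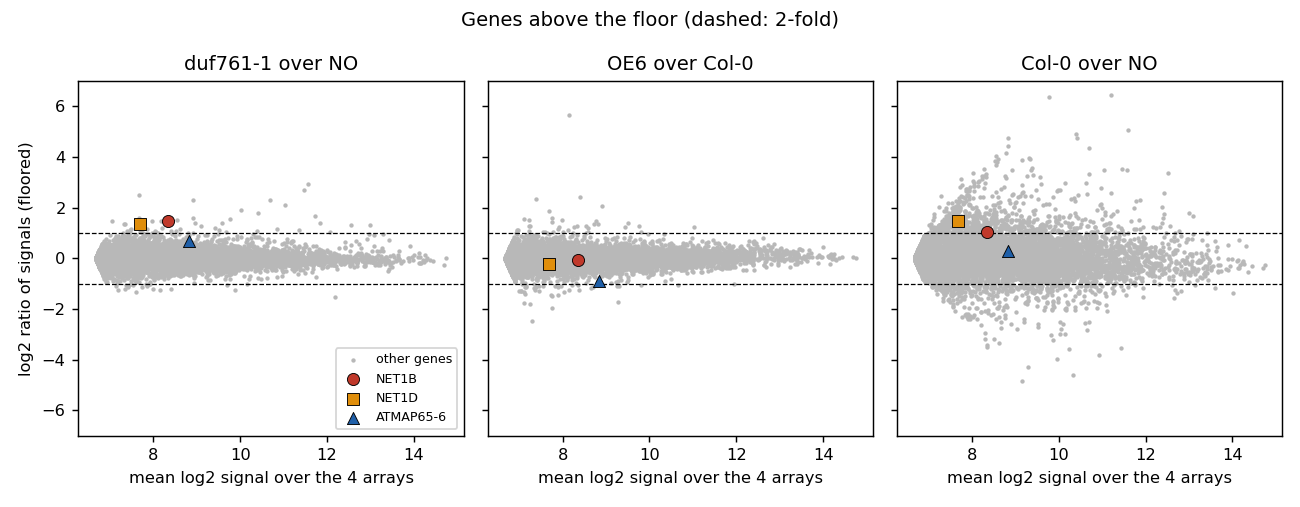
Log2 ratio of floored signals against the mean log2 signal over the 4 arrays for 7994 genes above the floor (grey points), with NET1B, NET1D and ATMAP65-6 marked and 2-fold dashed, for each comparison. NET1B (1.47) and NET1D (at least 1.35) lie above the 2-fold line for duf761-1 over NO, ATMAP65-6 (-0.91) lies just inside it for OE6 over Col-0, and the spread of all genes is widest for Col-0 over NO.

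The mutant is in the Nössen background and OE6 in Columbia-0, so the wild types were also set against each other. NET1B was 2.08-fold higher on Col-0 than on NO (log2 ratio 1.05), and NET1D at least 2.76-fold higher (at least 1.46). ATMAP65-6 had a log2 ratio of 0.30, within the yardstick SD of 0.42. In this comparison 14.1% of all genes were at least 2-fold apart and 9.02% were higher on Col-0 by that much. A log2 ratio as high as that of NET1B was found in 645 of 7994 genes, and one as high as that of NET1D in 304. Both this comparison and duf761-1 over NO divide by the NO array, so the high ratios of NET1B and NET1D rest on the same low values. NET1B was within 2-fold with median scaling (0.89), quantile normalization (0.90), loess within the pair (0.95), the pseudocount (0.75) and the floor at the 60th percentile (0.35), where NET1D was at the floor on both arrays. The 3′ to 5′ ratio of the actin control probe sets, a sign of RNA integrity, also separated the backgrounds, at 0.267 on duf761-1 and 0.279 on NO, and 2.06 on OE6 and 1.61 on Col-0. For the other controls it was 0.754 to 0.887 (GAPDH) and 1.08 to 1.27 (ubiquitin) over the 4 arrays. The part of RNA integrity in these ratios was not tested. Scaling on the spike-in controls moved the median of all genes to 0.41 and NET1B to 1.46, NET1D to at least 1.67 and ATMAP65-6 to 0.70. The probes of ATH1 follow the Columbia genome, and sequence differences in Nössen under the probes of these genes were not tested. The duf761-1 array, of the same Nössen background as NO, read 490.0 for NET1B and 260.0 for NET1D. Whether duf761-1 and NO carry the same sequence under these probes was not tested.

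The rest of the NET family could be read in part. Of 13 NET genes in the annotation, 10 had a probe set and 6 of those exceeded the floor on some array, NET1B and NET1D included. Of the other 4 above the floor, 0 were at least 2-fold apart on duf761-1 (0.888% of all genes) or on OE6 (0.951%), and 1 was at least 2-fold higher on Col-0 than on NO (9.02%). With 4 genes, such counts say nothing particular about the family. NET1A had signals of 198 on duf761-1 and 164 on NO, and of 198 on OE6 and 228 on Col-0. Its log2 ratios were 0.27, -0.21 and, between the wild types, 0.48. These have the same signs as those of NET1D, but the first pair lay within the yardstick SDs.

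NET4B, a family member at the vacuole membrane, had signals of 194 on duf761-1 and 167 on NO, and of 449 on OE6 and 420.5 on Col-0. Its values separate the backgrounds and not the lines from their wild types, with log2 ratios of 0.22 in the mutant, 0.10 in the overexpressor and 1.33 between the wild types. NET2D had signals between 103 and 125, close to the floor on all 4 arrays, and its log2 ratios were -0.28, -0.17 and -0.02 in the same order of comparisons. NET1C was above the floor on Col-0 only, at 103. The signals of NET2C, NET3A, NET3B and NET3C did not exceed 96.7 on any array and were under the floor, so they give no ratio. NET3C is known to link the endoplasmic reticulum to the plasma membrane.

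ATMAP65-6 was 1 of 9 MAP65 genes in the annotation and the only one with a named probe set here. The other MAP65 genes were not analysed here, and whether they move with ATMAP65-6 was not tested.

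The actin and microtubule systems around these genes were read through 8 lists of genes by symbol, which hold 50 other genes with a probe set, 35 of them above the floor. In each comparison some of the 35 were at the floor on both arrays, which fixed their ratio at 0.00. For duf761-1 over NO, 0 of the 35 were past 2-fold in either direction, beside 0.888% of all genes, and their log2 ratios ran from -0.73 to 0.43 with a median of -0.13, where the median of all genes was 0.00. For OE6 over Col-0, 0 were higher (0.475% of all genes) and 0 lower (0.475%), with a range of -0.62 to 0.58 and a median of 0.00, where that of all genes was -0.01. For Col-0 over NO, 2 of the 35 were higher (9.02% of all genes) and 1 lower (5.09%), with a median of -0.02 beside 0.04 for all genes. Among the 35 genes, those higher on Col-0 were NET4B and WLIM2a, an actin-bundling LIM protein, and the lower one was ACT11, an actin.

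Tubulins, the subunits of microtubules, were all above the floor, 7 of 7 with a probe set. On duf761-1 relative to NO their median log2 ratio was -0.22, and on OE6 relative to Col-0 it was 0.18. Both are smaller than the yardstick SD of a single probe set, 0.28 and 0.24. Over the settings run these medians stayed between -0.25 and -0.16 and between 0.09 and 0.18. The settings reprocess the same arrays, so this range is no replicate check. For Col-0 over NO the median was -0.16, and it lay between -0.32 and 0.25 over the settings run. The ratios of single tubulins ran from -0.60 to 0.22 on duf761-1 and from -0.02 to 0.57 on OE6, all within 2-fold. TUA6, an alpha-tubulin, had 5617 on duf761-1, against 6477 on NO, and 6539 on OE6, against 5792 on Col-0. TUB1, a beta-tubulin, had 806 on duf761-1, against 1220.0 on NO, and 850.3 on OE6, against 695 on Col-0. It was the furthest tubulin in the mutant and was chosen after its values were seen. TUA1 went the other way in the mutant, with a log2 ratio of 0.22. In the overexpressor TUA1, TUB5 and TUB6 hardly moved, at 0.01, 0.00 and -0.02. Tubulin genes are close in sequence, so their probe sets may share signal and are uncertain as separate measurements.

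On the actin side, ACT11 had 258 on duf761-1, against 333 on NO, and 201 on OE6, against 134 on Col-0. The second actin with a probe set, ACT12, was under the floor on all arrays. CRK, here the gene CROOKED for a subunit of the actin-nucleating ARP2/3 complex, had log2 ratios of 0.35 on duf761-1 and -0.18 on OE6. The LIM protein WLIM2b had 5173 on duf761-1, against 5515 on NO, and 5008 on OE6, against 5832 on Col-0, and its log2 ratios were -0.09 and -0.22. Of the actin-binding list, 4 genes above the floor had a median of -0.11 on duf761-1 and -0.03 on OE6, the second between -0.12 and 0.00 over the settings run.

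Of 6 myosins with a probe set, 2 were above the floor. XI-I, a myosin that acts at the nuclear envelope, had 299 on duf761-1, against 221 on NO, and 208 on OE6, against 312 on Col-0. Its log2 ratios of 0.43 and -0.59 have the same signs as those of ATMAP65-6. This is not particular to XI-I: CRK (0.35 and -0.18) and NET1A (0.27 and -0.21), among others, have these signs. The share of all genes with these signs was not counted. XIH had 91.8 on duf761-1, against 153 on NO, and 95.2 on OE6, against 134 on Col-0, so it was under the floor in the mutant and in the overexpressor. Its ratios were -0.58 or lower and -0.39 or lower.

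Of 18 other microtubule-associated genes, 13 were above the floor, with medians of -0.13 on duf761-1 and -0.08 on OE6. Most of these are IQD genes, of a family of calmodulin-binding proteins, so the medians mainly describe that family. The second median was between -0.17 and 0.01 over the settings run, so its sign is not settled. SPR1, which encodes a small protein of cortical microtubules, had log2 ratios of 0.03 and 0.08, with 2469 on duf761-1, 2418 on NO, 2467 on OE6 and 2331 on Col-0. The furthest gene of this list was IQD22, at -0.73 on duf761-1 and -0.62 on OE6. It was chosen after its values were seen. Kinesins, which move along microtubules or take them apart, had 3 of 3 genes above the floor on some array, and KINESIN-13A had ratios of -0.15 and 0.04. KINESIN-12B and KICP-02 were at the floor on both duf761-1 and NO, so they give no ratio there.

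**Figure D3:**
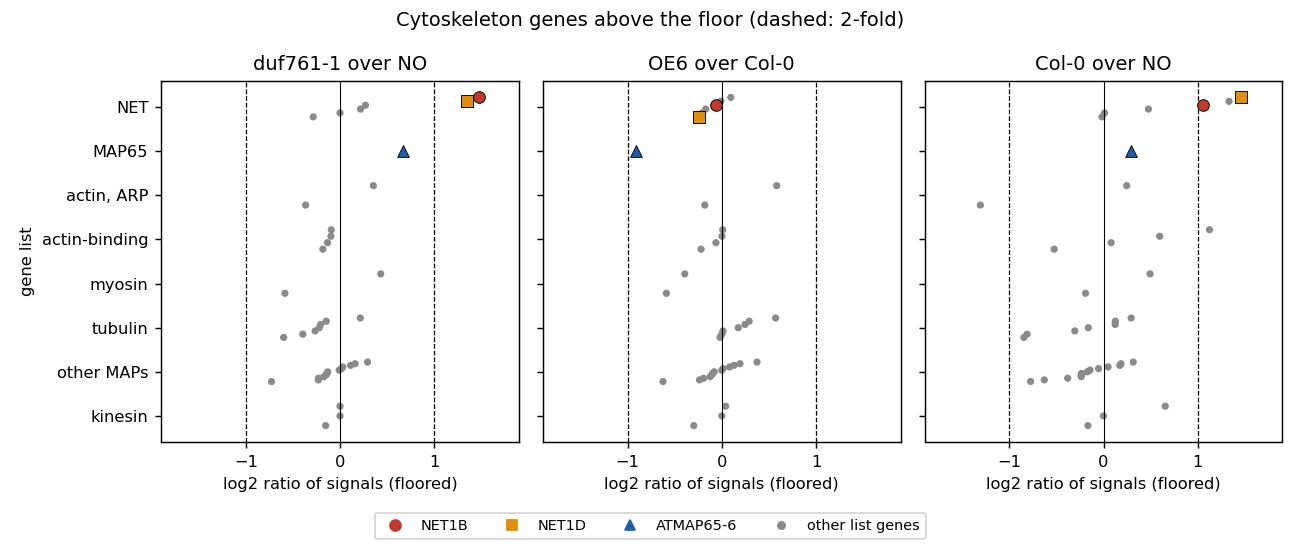
Log2 ratio of floored signals for the genes of 8 cytoskeleton lists above the floor, 1 point per gene, in each comparison, with NET1B, NET1D and ATMAP65-6 in colour and 2-fold dashed. For duf761-1 over NO the 35 other genes lie between -0.73 and 0.43, below NET1B (1.47) and NET1D (at least 1.35). NET1B and NET1D were picked for this ratio, which fixes that contrast. Of all genes above the floor, 0.663% were at least 2-fold higher. For Col-0 over NO, NET4B and WLIM2a are also past 2-fold upward and ACT11 downward.

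The likeness of patterns was measured as the distance between the 4 floored log2 values of each gene, centred on their own mean, over 4 arrays. NET1D was the 11th nearest of 7993 genes to NET1B, at a distance of 0.42, and NET1B the 13th nearest to NET1D. Both were picked for a high ratio of duf761-1 over NO, which fixes part of this likeness. The genes nearest to NET1B were the plastid-encoded ycf4, which encodes a photosystem I assembly factor (0.21), AT1G23280 (0.35) and AT4G17360 (0.36). The signal of ycf4 was 5495 on duf761-1, against 2081 on NO, and 4216 on OE6, against 3639 on Col-0. The genes nearest to NET1D were AT5G38710 (0.28), the plastid-encoded ndhA, for a subunit of the NADH dehydrogenase-like complex (0.30), and AT4G34500 (0.30). The signal of ndhA was 7442 on duf761-1, against 2954 on NO, and 8175 on OE6, against 7200 on Col-0. For each of these genes NO was the lowest array, as it was for NET1B and NET1D. They were picked for a pattern near that of NET1B or NET1D, which fixes most of this likeness.

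ATMAP65-6 was far from both, with a distance of 1.13 to NET1B and 1.35 to NET1D. Its nearest genes were AT5G52070 (0.15), AT5G59400 (0.18) and AT1G13940 (0.28). AT5G52070 had 279 on duf761-1, against 154 on NO, and 103 on OE6, against 188 on Col-0. AT5G59400 had 541 on duf761-1, against 336 on NO, and 248 on OE6, against 393 on Col-0. In both, as in ATMAP65-6, the mutant array was the highest and the overexpressor array the lowest. These genes were picked for a pattern near that of ATMAP65-6, so the shared order follows largely from that choice. Of the other cytoskeleton genes above the floor, XI-I was nearest to ATMAP65-6, at a distance of 0.56 and rank 106 of 7993. NET1A was the nearest to NET1D, at 0.88 and rank 607, and CRK the nearest to NET1B, at 0.85 and rank 492. Each was picked as the nearest of 35 genes, so its rank follows in part from that choice and supports no link.

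Of the genes beside these on the chromosomes, some near NET1B and NET1D could be read. NET1B lies on chromosome 4 next to IQD19, another gene of the calmodulin-binding family. IQD19 had 149 on duf761-1, against 163 on NO, and 117 on OE6, against 125 on Col-0, and its log2 ratio for duf761-1 over NO was -0.13. NET1D lies on chromosome 1 next to MCCA, a gene of leucine breakdown, which had 1593 on duf761-1, against 1317 on NO, and 651 on OE6, against 751 on Col-0. Its log2 ratios were 0.27 for duf761-1 over NO and -0.81 for Col-0 over NO, against at least 1.35 and at least 1.46 for NET1D. On the other side of NET1D, SPI (SPIRRIG, a BEACH-domain protein), at the second gene away, had ratios of -0.04 for duf761-1 over NO and -0.39 for Col-0 over NO. Around ATMAP65-6, on chromosome 2, the genes within 3 places that had a named probe set were under the floor on all arrays.

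The ratios of the 3 genes under each way of processing the arrays are plotted together. Each gene has 1 probe set, with no suffix for cross-hybridisation, so the mean of probe sets and the removal of cross-hybridising ones repeat the reported value by construction. The settings that could move the ratios of dim genes were the scalings, the floors and the pseudocount, and their values are given beside the results above.

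**Figure D4:**
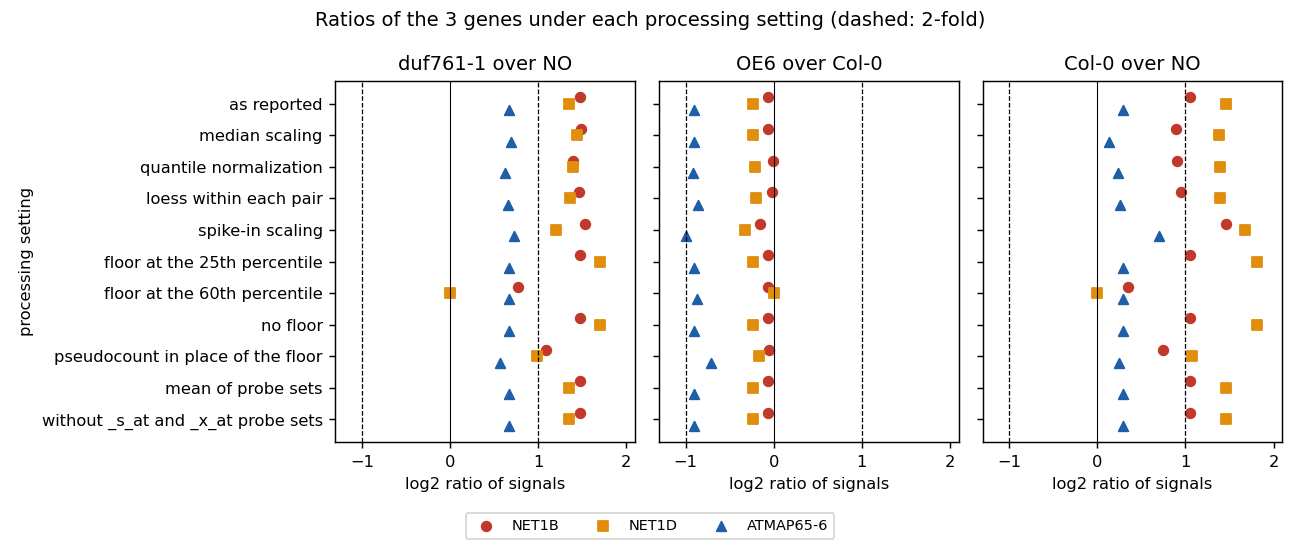
Log2 ratio of NET1B, NET1D and ATMAP65-6 (horizontal axis) as reported and under each processing setting (vertical axis), by comparison, with 2-fold dashed. For duf761-1 over NO, the floor at the 60th percentile gives 0.77 for NET1B and 0.00 for NET1D, and for OE6 over Col-0 ATMAP65-6 stays between -0.99 and -0.72.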

How the data were processed

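Total RNA (6 µg per sample) was labelled with biotin and hybridised to ATH1 arrays, per the labels. Per the submitters' processing notes, the authors computed the deposited signal intensities with MAS5. Its version and the genome build are not given in the sources used here. The deposited intensities of each array have a mean of 500.0 after trimming 2% of probe sets at each end. They hold no detection calls. Of 22810 probe sets, 64 are controls, 13513 carry 1 gene, 503 several genes and 8730 are unnamed here. Names were updated through a RefSeq table of TAIR10.1, which held 13286 of 13356 genes and was used for names and for which genes are neighbours. Values were floored, log2 was taken, and a gene was read by its probe set of highest mean. Called means at least 2-fold apart. The number of arrays limits the precision. Named genes were the 3 genes, list members past 2-fold or of highest mean signal, and the 3 nearest genes by pattern. Other NET genes, ACT12, XIH, TUB1, IQD22 and the chromosomal neighbours were added after values were seen. Symbols of unrelated genes that match a list's letters were left out. The genes and lists were chosen with earlier results of these data known. Alternatives were median, quantile, loess (span 0.4) and spike-in scaling (18 probe sets), no floor, a floor at the 25th or the 60th percentile, a pseudocount equal to the floor, a 3-fold threshold, the mean of probe sets and leaving out probe sets that may cross-hybridise. Python 3.11.15, numpy 2.4.6, pandas 2.3.3 and statsmodels 0.14.6 were used.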

Additional observations from a re-analysis of the deposited data

How the results depend on the processing

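No paired analysis was possible because each genotype has 1 array, and for the same reason no array could be left out. Of 219 values recomputed under 11 alternatives, 189 stayed within the yardstick SD or, for counts, within 1.5 times, and 0 ratios past 2-fold changed sign. The 189 include the mean of probe sets and leaving out cross-hybridising probe sets, which repeated every reported value. They therefore overstate how steady the values are. For duf761-1 over NO, NET1B was at 0.77 with the 60th-percentile floor and 1.09 with the pseudocount. NET1D was at 0.00 and 0.99 in these settings, and at 1.70 with the 25th-percentile floor and with no floor. Of the 3 genes, 2 were past the threshold as reported, 0 with the 60th-percentile floor, 1 with the pseudocount and 0 at 3-fold. Other cytoskeleton genes at least 2-fold lower numbered 0 as reported and 1 with the 25th-percentile floor. For Col-0 over NO, NET1B was at 0.35 and NET1D at 0.00 with the 60th-percentile floor. The count of the 3 genes past the threshold was 2 as reported, 1 with median scaling, quantile normalization, loess and the pseudocount, and 0 with the 60th-percentile floor and at 3-fold. Other cytoskeleton genes higher on Col-0 numbered 2 as reported, 6 with the 25th-percentile floor, 4 with no floor, 1 with median scaling, the 60th-percentile floor and the pseudocount, and 0 at 3-fold. Those lower on Col-0 numbered 1 as reported, 2 with median scaling and the 25th-percentile floor, and 0 with spike-in scaling, the 60th-percentile floor, the pseudocount and at 3-fold. A higher floor hides dim values by construction. For the other settings the cause was not tested. Over all genes, counts at least 2-fold higher and lower on duf761-1 were 53 and 18 as reported, 120 and 149 with the 25th-percentile floor, 26 and 4 at the 60th, 153 and 137 with no floor, and 28 and 3 with the pseudocount.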
